A study of Mus musculus with 6 samples.

Results

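The melanocyte genes are 9 genes that mark pigment cells: Tyr, Tyrp1, Dct, Pmel, Mlana, Slc45a2, Oca2, Mitf and Kit. They were chosen by name, with earlier results of these data known. Each was found by Ensembl identifier among the 37991 gene rows of the count files. All 9 were present, and all 9 passed the filter on low counts. Pmel carries the older symbol Si. They were measured by RNA sequencing in Nestin-GFP-positive cells, cells in which a Nestin reporter is active, sorted from the dermis and attached white fat of mouse pups 3 days old. The 3 control mice carried Nes-GFP alone. The 3 mutant mice carried Nes-GFP, Nes-Cre (a recombinase driven by Nestin sequence) and, beside a wild-type copy, a Pdgfra allele bearing D842V (PDGFRα+/[S]D842V in the labels), a receptor form that the series' title calls constitutively active. Controls as labelled lack Nes-Cre, so recombinase and allele cannot be told apart. The sources used here give no strain, coat colour or litter.

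Melanocytes come from the neural crest and reach the skin as precursors called melanoblasts, which depend on the receptor tyrosine kinase Kit and its ligand Kitl, and on the endothelin receptor Ednrb and its ligand Edn3. Mitf, a basic helix-loop-helix transcription factor, switches on the pigment genes, many through a promoter motif called the M-box. The enzymes Tyr, Dct and Tyrp1 then make melanin inside the melanosome, whose fibrils are built from Pmel. In newborn mouse skin, pigment cells are known from the dermis and the growing hair follicles. Per the labels' protocols, epidermis was removed and follicles were spun out before the sort.

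RefSeq promoter entries of build GRCm38.p6 were matched by symbol for 6 of the 9 members, namely Tyr, Tyrp1, Dct, Oca2, Mitf and Kit. Pmel, Mlana and Slc45a2 had none in the table. The 250 bases before each transcription start were searched on both strands for the M-box TCATGTG and for its core CATGTG, which every M-box contains. The M-box was found before the starts of the 3 enzyme genes, which are shown because they are one gene family and share the motif. It occurred in 3.25% of 32851 windows of the same length, and the core in 12.3%. Capitals mark M-boxes, and CACATGA is the M-box read from the other strand.
Tyr (chr7:87493513-87493762, minus strand): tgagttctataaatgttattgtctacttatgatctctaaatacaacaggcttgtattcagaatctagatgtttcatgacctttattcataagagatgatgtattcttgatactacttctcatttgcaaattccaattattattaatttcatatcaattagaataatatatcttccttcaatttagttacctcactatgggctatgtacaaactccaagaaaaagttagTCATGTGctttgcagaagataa
Tyrp1 (chr4:80833963-80834212, plus strand): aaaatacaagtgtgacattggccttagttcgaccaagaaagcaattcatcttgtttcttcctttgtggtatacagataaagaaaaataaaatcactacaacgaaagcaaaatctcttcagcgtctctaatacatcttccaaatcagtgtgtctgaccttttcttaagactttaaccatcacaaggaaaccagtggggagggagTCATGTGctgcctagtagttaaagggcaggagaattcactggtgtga
Dct (chr14:118052247-118052496, minus strand): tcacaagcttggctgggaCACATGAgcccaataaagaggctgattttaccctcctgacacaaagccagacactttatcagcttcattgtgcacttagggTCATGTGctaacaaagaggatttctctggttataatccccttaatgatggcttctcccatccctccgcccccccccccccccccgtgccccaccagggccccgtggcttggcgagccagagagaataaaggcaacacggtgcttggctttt
The M-box began 22 bases before the start in Tyr and 47 bases before it in Tyrp1. Dct held 2, beginning 232 and 151 bases before its start. Oca2 held the core alone, 186 bases before its start, and neither the 3 Mitf windows nor the 2 Kit windows held either motif. A match describes the letters and is not a measured binding site.

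Gene counts per library ran from 11912469 to 18792939, and a count of 0 allows up to 0.158 to 0.252 CPM (counts per 1000000 of the scaled library total), as 3 counts of the library's total. No member was near that floor: the smallest count was 10, for Oca2 in mutant replicate 2. Log2 CPM correlated between libraries of 1 group at 0.984 to 0.990. Pdgfra itself had 844 ± 21.1 CPM in controls and fell to 358 ± 11.9 CPM (SD over 3 libraries, here and below; edgeR adjusted p = 2.75e-06). The labels tie the libraries to 3 mice per genotype. All 8 pericyte markers, the cell type in the series' title, were detected. Rgs5 (306 ± 96.4 CPM in controls) and Notch3 (216 ± 13.8 CPM) were the highest over all 6 libraries, and neither was called. Of the others, 2 were called higher. The labels name white adipose tissue as the source. Of the fat cell markers, Fabp4 (129 ± 24.7 CPM in controls) and Plin1 (35.9 ± 11.2 CPM) were detected, while Lep, the adipokine leptin, had at most 1 count in any library.

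All 9 melanocyte genes were detected in all 6 libraries, and all 9 had a lower mean in mutant cells, but 2 passed the test. These were Kit and Mitf, so 2 of 9 fell (22.2%) and 0 rose. Of all 15035 tested genes, 7390 had a log2 fold change below 0. Most members shared their extreme libraries, so the 9 directions are not separate observations. Across all 15035 tested genes 9.13% were called lower by the same edgeR test (adjusted p under 0.05, Benjamini-Hochberg) and 17.8% in either direction. At an unadjusted p under 0.05 the members still numbered 2 lower and 0 higher. Higher calls made up 8.63% of all genes. DESeq2 called 3 members lower, Tyr in addition (8.52% of all genes by that test), and limma-voom 2 (8.75%). With no filter 1 was called lower (7.65%) and with a replicate block 4 (9.57%). That block pairs libraries by replicate number, and these numbers are not known to mark pairs. The median log2 fold change of the members was -0.62 and that of all tested genes 0.01. Libraries of the groups did not overlap, with mutant lower, for 4 of 9 members (44.4%) and for 18.6% of all tested genes. In bulk RNA, fewer cells of a type and less RNA per cell cannot be told apart.

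**Figure D1:**
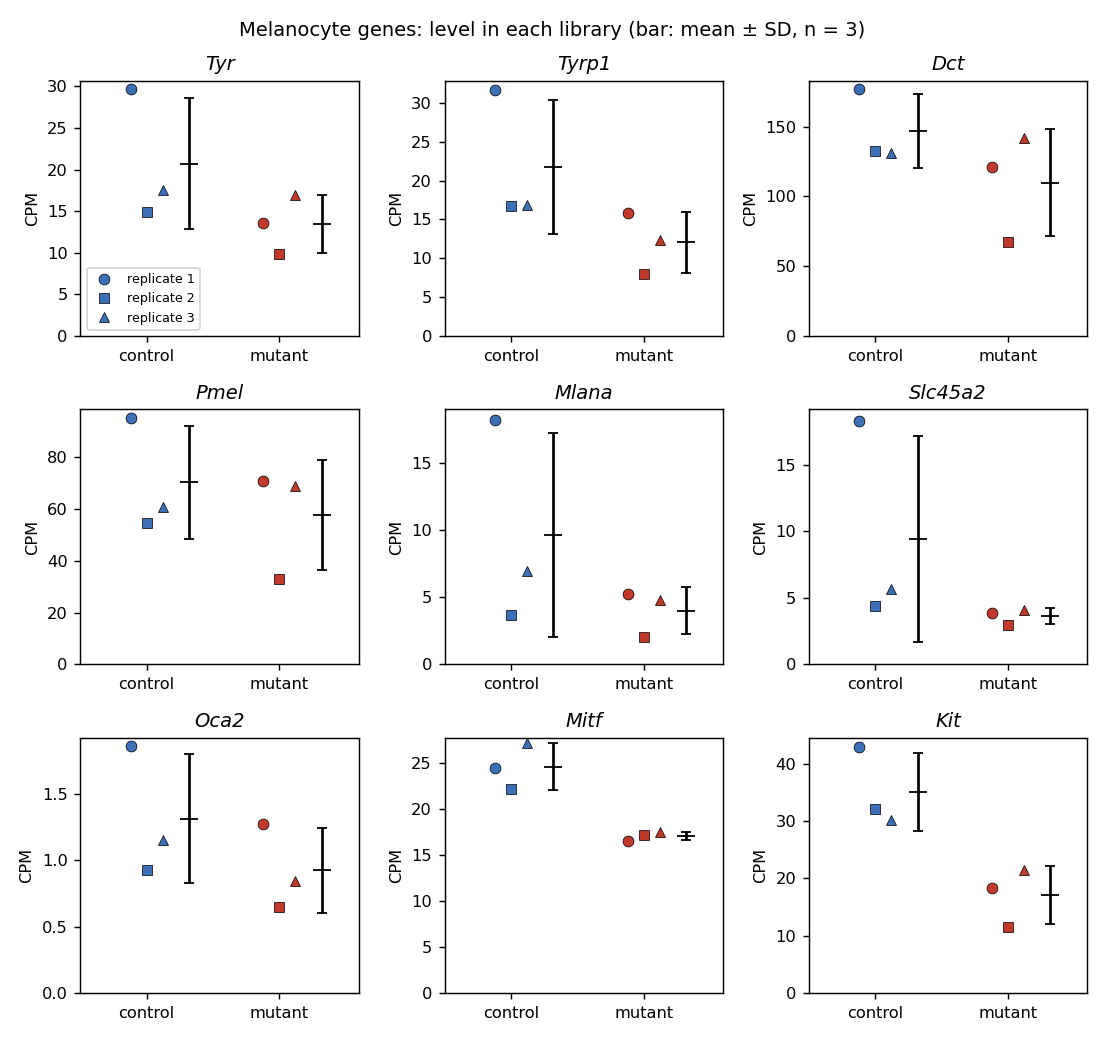
Level in CPM (vertical axis, from 0) of the 9 melanocyte genes in each control (blue) and mutant (red) library, with symbols for replicates 1 to 3 and the mean ± SD of 3 libraries in black. Control replicate 1 is the highest library for 8 genes and mutant replicate 2 the lowest for 8, and for Mitf the groups are tight and separate.

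The 3 enzymes of melanin synthesis were lower on average without a call. Tyr (ENSMUSG00000004651, chromosome 7), tyrosinase, the rate-limiting enzyme, had 29.7, 14.9 and 17.5 CPM in control replicates 1 to 3 and 13.6, 9.88 and 16.9 CPM in mutant replicates 1 to 3. The groups overlapped, as mutant replicate 3 lay above control replicate 2. The log2 fold change was -0.62 (95% interval -1.42 to 0.18; edgeR adjusted p = 0.246). DESeq2 called it, with an adjusted p of 0.0399 and a log2 fold change of -0.63.

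Tyrp1 (ENSMUSG00000005994, chromosome 4), which acts later in the making of black eumelanin, had 31.6, 16.7 and 16.9 CPM in the control libraries and 15.8, 7.997 and 12.4 CPM in the mutant ones. Each mutant library lay below each control, mutant replicate 1 only just. The log2 fold change of -0.86 (interval -1.79 to 0.07) had an edgeR adjusted p of 0.179. Dct (ENSMUSG00000022129, chromosome 14), dopachrome tautomerase, an early marker of melanoblasts, was the most abundant member in CPM. It had 177, 132 and 131 CPM in the control libraries and 121, 67.0 and 142 CPM in the mutant ones. Mutant replicate 3 lay inside the control range and mutant replicate 2 far below it. Dct's log2 fold change was -0.42 (interval -1.26 to 0.43; edgeR adjusted p = 0.441).

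The melanosome proteins also went without a call. Pmel (ENSMUSG00000025359, chromosome 10), the fibril protein, had 95.1, 54.5 and 60.8 CPM in the control libraries and 70.7, 33.0 and 68.9 CPM in the mutant ones, and the groups overlapped. Its log2 fold change was -0.29 (interval -1.36 to 0.78; edgeR adjusted p = 0.675). In the GRCm38 annotation its exons overlap exons of Cdk2 and Dgka on the opposite strand, and the sources used here do not say whether counting used strand, so its counts are uncertain there. Mlana (ENSMUSG00000024806, chromosome 19), a melanosomal membrane protein, had 18.2, 3.69 and 6.98 CPM in controls against 5.24, 2.02 and 4.80 CPM in mutants. Control replicate 1 stood 2.61 times above the next library, and the other libraries of both groups interleaved. Mlana's log2 fold change was -1.27 with an interval from -3.19 to 0.66 (edgeR adjusted p = 0.308), and it was -0.44 without control replicate 1.

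Slc45a2 (ENSMUSG00000022243, chromosome 15), a transporter that helps to set melanosome pH, had 18.3, 4.36 and 5.63 CPM in the control libraries and 3.89, 2.93 and 4.07 CPM in the mutant ones. The groups did not overlap, yet control replicate 1 was 3.25 times the next library. Its log2 fold change was -1.39 (interval -3.06 to 0.28; edgeR adjusted p = 0.215), and -0.48 without control replicate 1. Oca2 (ENSMUSG00000030450, chromosome 7), an anion transporter of the melanosome, was the scarcest member, at 10 to 29 counts per library. It had 1.86, 0.923 and 1.15 CPM in the control libraries and 1.28, 0.650 and 0.845 CPM in the mutant ones. The groups overlapped (log2 fold change -0.53; edgeR adjusted p = 0.343). None of the 7 pigment genes was called by edgeR, also at an unadjusted p under 0.05 (0 of 7). DESeq2 called 1 of them, Tyr, and limma-voom 0. With the replicate block edgeR called 2, Tyrp1 (adjusted p = 0.00266) and Mlana (0.0160), by a pairing that is not known to be real.

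Mitf (ENSMUSG00000035158, chromosome 6), the regulator of these genes, fell with little spread. It had 24.5, 22.2 and 27.2 CPM in the control libraries and 16.6, 17.2 and 17.5 CPM in the mutant ones. The mutant libraries lay close together and below every control. Mitf changed by -0.53 on the log2 scale (95% interval -0.76 to -0.30; edgeR adjusted p = 0.00609), a level 0.693 times that of controls. With any 1 library left out it lay between -0.60 and -0.45, and it was called in all 15 alternative analyses (largest adjusted p 0.0306). Mitf is the one member whose extremes were in other libraries, control replicate 3 at the top and mutant replicate 1 at the bottom. Its gene count sums transcripts from several promoters, of which the melanocyte form is only one, so the form that fell cannot be read from these counts. Among its relatives of the MiT family, Tfeb, Tfe3 and Tfec, 0 of 3 were called by edgeR (also 0 at an unadjusted p under 0.05 and by DESeq2 and limma-voom). The most abundant relative, Tfe3, stood at 55.1 ± 2.35 (control) and 55.2 ± 5.69 CPM (mutant; log2 fold change 0.00, interval -0.19 to 0.19).

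Kit (ENSMUSG00000005672, chromosome 5), the receptor tyrosine kinase that melanoblasts need to survive and migrate, had the larger of the 2 called falls. It had 42.9, 32.1 and 30.2 CPM in the control libraries and 18.3, 11.5 and 21.4 CPM in the mutant ones. The highest mutant library was well below the lowest control. Kit changed by -1.03 on the log2 scale (95% interval -1.63 to -0.44; edgeR adjusted p = 0.0342), a level 0.489 times that of controls. The call was lost without control replicate 2 (adjusted p = 0.0664), without control replicate 3 (0.0651), without mutant replicate 1 (0.0928) and with no filter on low counts (0.05003), and the log2 fold change then lay between -1.14 and -1.04. The difference was smaller, -0.65, without control replicate 1 and mutant replicate 2 together, the libraries with the most and the least Kit, and it was called there (adjusted p = 0.000989). Those libraries were picked after their values were seen. Leaving out the extreme library of each group narrows the spread within groups, so the smaller adjusted p there is no added support.

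**Figure D2:**
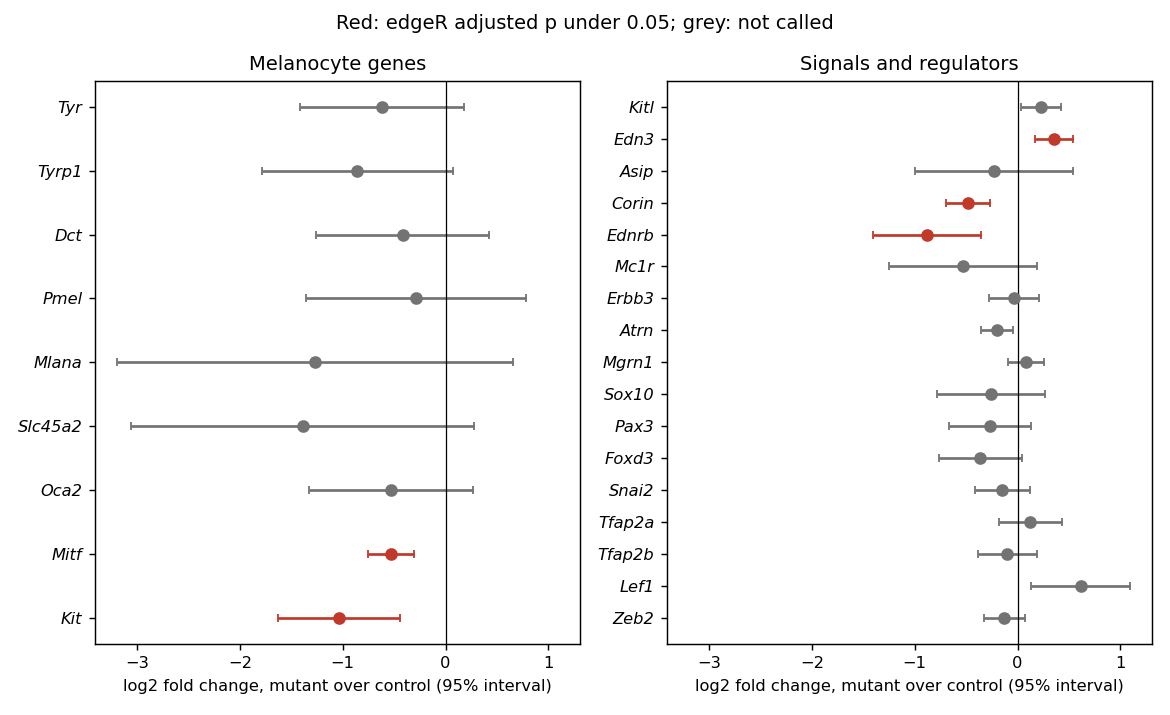
Log2 fold change, mutant over control, with its 95% interval from edgeR (horizontal axis) for the 9 melanocyte genes at left and 17 tested signals and regulators of melanocytes at right; red points passed the test and grey points did not. Kit and Mitf are the called members, and Edn3 (higher), Corin and Ednrb (both lower) the called regulators.

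The pigment genes shared their extreme libraries. Control replicate 1 was the highest library for 8 of 9 members and mutant replicate 2 the lowest for 8. The share of all genes with these extremes was not computed. The summed CPM of the 7 pigment genes was 372 in control replicate 1, 227 and 240 in the other controls, 231 and 250 in mutant replicates 1 and 3, and 123 in mutant replicate 2. Without control replicate 1 the median log2 fold change of the 9 members was -0.44, with Tyr at -0.28, Tyrp1 at -0.49, Dct at -0.27, Pmel at -0.02 and Oca2 at -0.20. Without mutant replicate 2 Dct was at -0.16 and Pmel at -0.01. Without control replicate 1 and mutant replicate 2 together the median of the 9 members was -0.13. Dct then stood at -0.01, Pmel at 0.26 and Tyr at -0.10, with no pigment gene called. Since these libraries were the highest control and the lowest mutant for 8 of 9 members, leaving them out had to bring those values towards 0 or past it. Mitf, whose extremes were in other libraries, was at -0.55 there. Control replicate 1 also had more of the macrophage genes Adgre1 (48.0 CPM against 10.6 to 15.8 elsewhere) and Lyz2 (64.6 against 13.6 to 28.4). Both were picked with their values known. Of the 8 macrophage markers, C1qa and Ctss were also highest there, but by little. Csf1r (66.5 CPM there and 71.3 CPM in mutant replicate 3), Mrc1, C1qb and Cd68 were higher in another library. Mutant replicate 2 also had the highest sum of fat cell markers, 570 CPM against 172 to 285 elsewhere. The pericyte marker sum had the same extremes, 1470 CPM in control replicate 1 and 1142 CPM in mutant replicate 2, as did Rgs5 at 405 and 139 CPM. Whether these features have a part in the pigment gene levels was not tested.

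**Figure D3:**
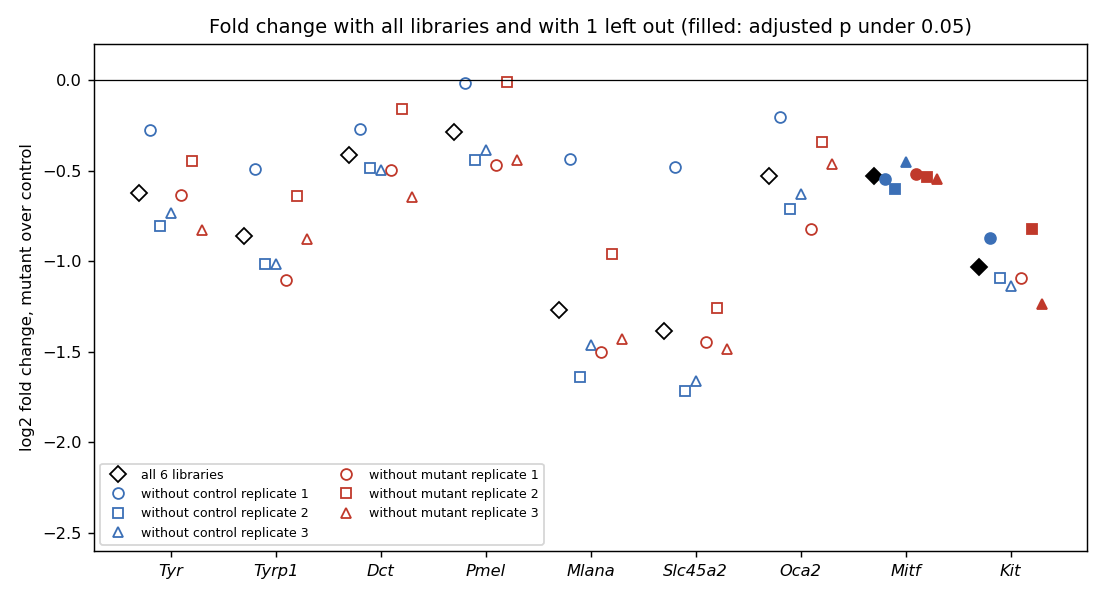
Log2 fold change of each melanocyte gene with all 6 libraries (black diamond) and with 1 library left out (blue, a control; red, a mutant); filled symbols had an edgeR adjusted p under 0.05. All symbols lie below 0, those of Mitf are all filled and lie between -0.60 and -0.45, and the open blue circles show the smaller differences of Mlana and Slc45a2 without control replicate 1.

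Counts were next set against Dct in the same library, a choice made after the values were seen, since such a ratio does not depend on library scaling. Kit had 24.2, 24.3 and 23.1 counts per 100 Dct counts in controls and 15.1, 17.2 and 15.1 in mutants. The mean was 23.9 ± 0.669 in controls and 15.8 ± 1.19 in mutants (SD, n = 3 each), a ratio of 0.662, with no overlap. The two-sided exact permutation p was 0.1, the smallest that 3 against 3 libraries can give. Over all 36 pairs of members, the ratios of the groups separated for 5, in either direction. Tyrp1 against Pmel and against Oca2 were among them. Of the 8 member partners of Kit, the groups separated in this way for 3, Dct, Tyr and Pmel. They overlapped for the other 5, Tyrp1 (169 ± 29.5 and 144 ± 28.5 counts per 100), Mlana, Mitf, Slc45a2 and Oca2. Against genes outside the members they separated for the neural crest factor Sox10 and overlapped for Ednrb. With no difference between the groups, a pair would separate in either direction with a probability of 0.1. The pairs share genes and libraries, so they are not independent. The share among pairs of all genes was not computed, and the counts of separated pairs are a description only. Control replicate 1 and mutant replicate 2, the extremes in pigment gene level, had Kit to Dct values near those of their own groups.

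By the same measure Mlana and Slc45a2 separated control replicate 1 from the rest. Mlana had 10.3 counts per 100 Dct counts there and 2.79 to 5.33 in the other 5 libraries. Slc45a2 had 10.3 there and 2.87 to 4.37 elsewhere. Trpm1, a cation channel of melanocytes, picked with its values known, had 17.2 CPM in that library and 2.02 to 5.84 CPM elsewhere. Mitf relative to Dct varied more within groups than between them. It had 13.8, 16.8 and 20.8 counts per 100 Dct counts in controls and 13.7, 25.6 and 12.3 in mutants, with overlapping groups (exact permutation p = 1).

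**Figure D4:**
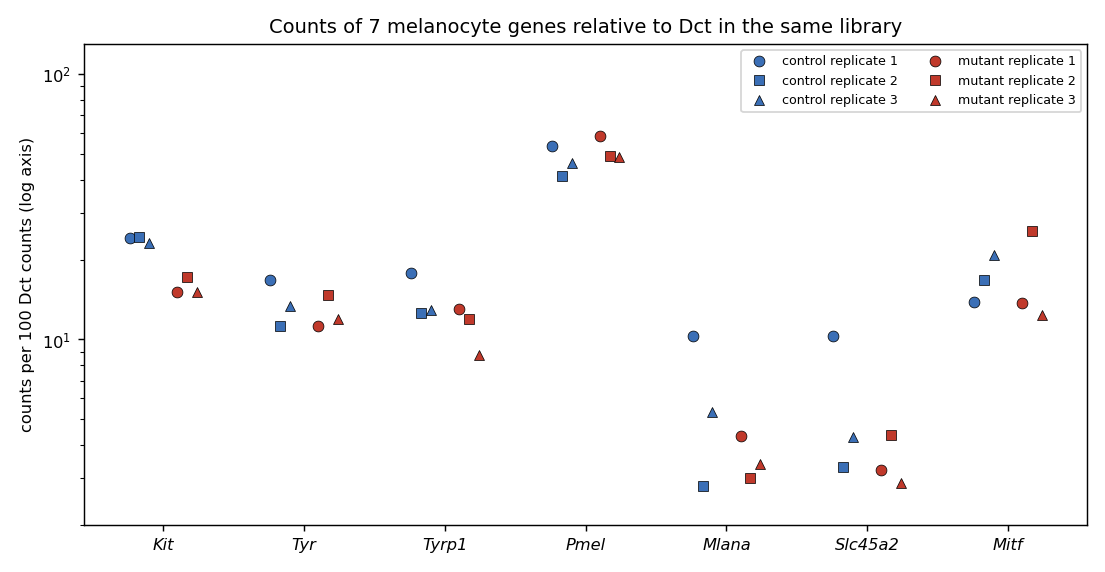
Counts of 7 melanocyte genes per 100 Dct counts in the same library (vertical axis, logarithmic), controls in blue and mutants in red, with symbols for replicates 1 to 3. For Kit the controls lie at 23.1 to 24.3 and the mutants at 15.1 to 17.2, while control replicate 1 stands apart for Mlana and Slc45a2.

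Levels of different members were compared per kilobase of merged exon length (GENCODE M21), since longer transcripts collect more reads. In controls Pmel came first with 30.6 ± 9.53 CPM per kilobase and Dct second with 24.9 ± 4.47, and their ranges overlapped. Mlana (9.10 ± 7.19) and Tyrp1 (7.69 ± 3.03) followed, also overlapping each other. Mitf, Kit, Slc45a2 and Tyr lay between 3.97 and 2.91 CPM per kilobase with overlapping ranges, and Oca2 was last at 0.331 ± 0.123. Neighbours in this order had separate ranges only between Dct and Mlana, Tyrp1 and Mitf, and Tyr and Oca2. Beyond neighbours, the range of Mlana (3.49 to 17.2) overlapped those of Mitf, Kit, Slc45a2 and Tyr, and that of Slc45a2 (1.46 to 6.14) reached that of Tyrp1. The exon lengths come from a later build than the counts and include rarely used exons, so this order is approximate, for Mitf above all.

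Most signals that act on melanocytes were not called. Of 18 listed signals and regulators 17 were tested, 1 rose, 2 fell and 14 were not called, a share close to the 17.8% called among all genes, and their median log2 fold change was -0.15. Among ligands, Edn3, which drives melanoblast growth, rose from 34.6, 33.1 and 37.5 CPM to 42.5, 48.2 and 44.1 CPM, without overlap (log2 fold change 0.35; edgeR adjusted p = 0.0150). Leaving out control replicate 2 (0.0656) or mutant replicate 2 (0.0514) ended that call, as did leaving out control replicate 1 with mutant replicate 2 (0.0596). Kitl, the ligand of Kit, picked with its values known, had 77.1 ± 9.35 and 90.3 ± 2.72 CPM and was not called (log2 fold change 0.23; edgeR adjusted p = 0.102). Its groups did not overlap, with every mutant library above every control. Corin, a protease of the hair follicle's dermal papilla that tempers agouti signalling, fell from 78.3, 81.2 and 84.7 CPM to 64.0, 49.1 and 62.1 CPM, a change of -0.48 on the log2 scale (edgeR adjusted p = 0.00727).

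Ednrb, the receptor for Edn3, fell from 184, 105 and 144 CPM to 88.6, 70.5 and 76.2 CPM, with every mutant library below every control. Its change was -0.88 on the log2 scale (interval -1.40 to -0.36; edgeR adjusted p = 0.0398). The call was lost without control replicate 3 (0.115), without any 1 mutant library (0.0707 to 0.147) and with no filter (0.0611). Ednrb is also made by Schwann cells and vessel cells, so its counts are not those of melanocytes alone. The neural crest factors Sox10 (20.5 ± 6.01 and 17.1 ± 3.57 CPM) and Pax3 (13.6 ± 2.62 and 11.3 ± 2.44 CPM), chosen after their values were seen, overlapped between groups without a call (adjusted p from edgeR 0.479 and 0.337). The log2 fold change of Sox10 was -0.26, and it was 0.00 without control replicate 1.

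Genes of melanosome building and transport work in many cell types, since they also serve lysosome-related organelles. Of 29 tested, 2 rose, 3 fell and 24 were not called, a share close to the 17.8% called among all genes, and their median log2 fold change was -0.06. Lyst, a regulator of lysosome size, had the smallest adjusted p and fell from 39.8, 37.2 and 39.5 CPM to 26.8, 24.1 and 27.4 CPM, a change of -0.57 on the log2 scale (edgeR adjusted p = 0.00142). Atp7a, the copper pump that supplies tyrosinase, fell by 0.44 on the log2 scale, and Myo5a, the motor that carries melanosomes, by 0.31 (edgeR adjusted p = 0.00881 and 0.0105). Lyst, Atp7a and Myo5a were called in each of 15 alternatives. Dtnbp1, a subunit of a sorting complex for melanosome cargo, rose by 0.38 and the small GTPase Rab32 by 0.48. Dtnbp1 lost its call without control replicate 2 or 3 or mutant replicate 1 (largest adjusted p 0.0715). Rab32 lost it with DESeq2, without any 1 library but control replicate 2, and without control replicate 1 and mutant replicate 2 together (largest 0.128). Slc24a5, an ion exchanger of melanosomes picked with its values known, had 25.2, 13.3 and 15.9 CPM in the controls. The mutants had 12.7, 9.04 and 12.7 CPM, without overlap and without a call (log2 fold change -0.67; edgeR adjusted p = 0.110). Slc24a5 was called in 4 of 15 alternatives, with no filter (0.00144), the replicate block (0.0122), DESeq2 (0.0166) and without control replicate 2 (0.0408), and it was at -0.36 without control replicate 1.

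Kit is the nearest tested protein-coding gene after Pdgfra on chromosome 5 in the GENCODE M21 order, and Kdr the next, so the mutant allele and Kit are neighbours. Of the 5 nearest tested protein-coding genes on each side, 2 rose and 2 fell, against 17.8% called among all genes. Kdr, an endothelial receptor for vascular growth factor, rose from 33.2 ± 7.36 to 59.0 ± 6.29 CPM, a log2 fold change of 0.84 (edgeR adjusted p = 0.00832). On the other side Chic2 rose by 0.35 and Rasl11b fell by 0.51 on the log2 scale. Chic2 lost its call when control replicate 1, control replicate 2, mutant replicate 2, or the first and last of these together were left out (largest adjusted p 0.126). Counts per gene do not separate alleles, so which copy of Kit was lower cannot be read from them.

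Kit and Mitf are also made by mast cells, the tissue cells that store histamine, and most called markers of that type were higher in mutant cells. Of 8 tested mast cell markers 4 rose and 1, the tryptase gene Tpsab1, fell (log2 fold change -1.84), where 8.63% of all genes were called higher and 9.13% lower, and their summed level was 60.1 to 71.7 CPM in controls and 101 to 129 CPM in mutants. The most abundant of them, the proteases Cma1 and Cpa3, had log2 fold changes of 0.77 and 1.01 (edgeR adjusted p = 0.00314 and 0.000757). Fcer1a, a defining receptor subunit, had no count in 4 libraries and 1 count in each of the other 2. The part of mast cells in the levels of Kit and Mitf was not tested.

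Markers of other cell types were detected too, and their counts stand against the same 8.63% higher and 9.13% lower among all genes. Of 11 Schwann cell markers 1 rose (Ngfr, log2 fold change 0.33) and 1 fell, with sums of 365 to 432 CPM in controls and 308 to 345 CPM in mutants, and Egr2, also abundant, was not called (-0.92; edgeR adjusted p = 0.0534). Egr2 was called lower in 6 of 15 alternatives, among them DESeq2 (0.00718), limma-voom (0.0142) and without control replicate 1 (2.2e-06). Sums of 12 keratinocyte and follicle markers were 633 to 961 CPM in controls and 1116 to 1400 CPM in mutants. Krt5 (log2 fold change 0.80) and Krt14 (0.67, not called) were the most abundant, and 7 of the 12 were called higher. Leaving out control replicate 3 or mutant replicate 3 gave 1 such call, and leaving out mutant replicate 1 gave 2. Of 7 endothelial markers 4 rose (2 without control replicate 3), Kdr among them and Cdh5 (0.77) not called, with sums of 121 to 157 and 195 to 286 CPM. None of 8 macrophage markers, Mrc1 and Csf1r the most abundant, was called by edgeR, with 1 higher at an unadjusted p under 0.05 and 0 by DESeq2 and limma-voom. Without control replicate 1, 3 of them were called higher. Of 6 tested fat cell markers 1 rose, Fabp4 (log2 fold change 0.84). Leaving out control replicate 1, control replicate 2 or mutant replicate 3 ended it. Plin1, also abundant, was at -0.15. Of 8 pericyte markers 2 rose and 0 fell. Those that rose were Kcnj8 and Abcc9 (log2 fold change 1.47 and 0.85, edgeR adjusted p = 7.59e-05 and 0.000178). The sums of the 8 overlapped, 1163 to 1470 CPM in controls and 1142 to 1421 CPM in mutants. The part of these cells in the member levels was not tested.

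**Figure D5:**
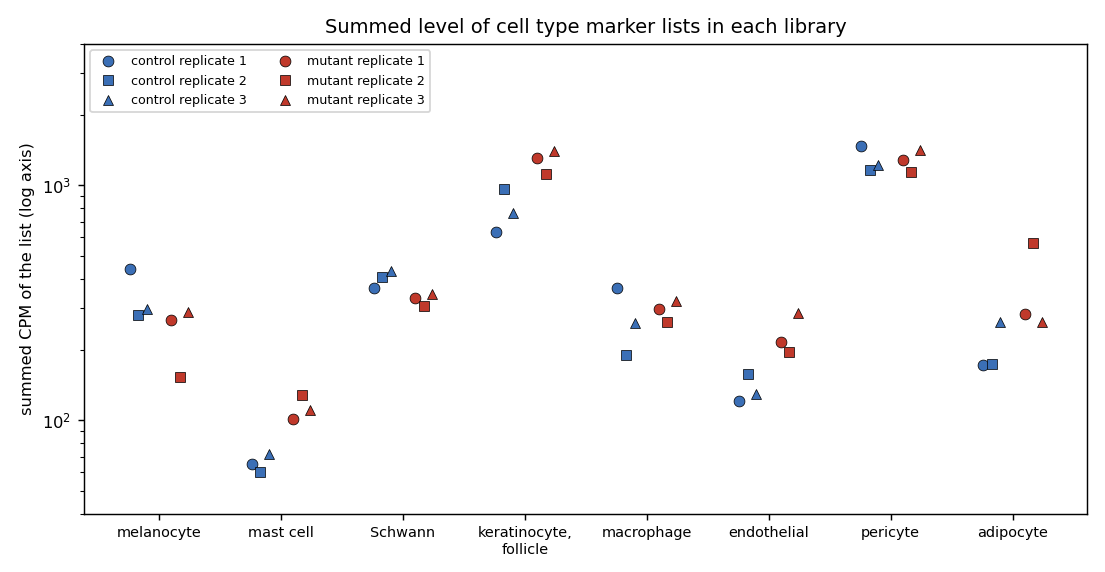
Summed CPM (vertical axis, logarithmic) of the melanocyte genes and of 7 marker lists of other cell types in each control (blue) and mutant (red) library, with symbols for replicates 1 to 3. Melanocyte sums are 281 to 439 CPM in controls and 152 to 289 CPM in mutants, while mast cell sums are higher in all mutant libraries.

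The genes whose levels followed the pigment genes most closely over the 6 libraries were Tmem51, Rai14, Mustn1, Ndfip1 and Acpp. Pearson's r of their log2 CPM with the log2 of the summed CPM of Dct, Tyr, Tyrp1, Pmel and Mlana was 0.994, 0.992, 0.991, 0.990 and 0.989. These are the highest among tested genes with a name, listed genes and genes known only by a clone or model number apart. They are given as a description, and all of them rest on the same 6 libraries. Tmem51 spanned 4.55 to 8.97 CPM and Rai14 52.1 to 69.4 CPM, both with mutant replicate 2 lowest and control replicate 1 highest, and none of the 5 had groups that did not overlap.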

How the data were processed

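RNA from 6 libraries, 3 control and 3 mutant, was sequenced, and the authors deposited whole-number counts of reads for each gene, 1 file per library. The submitters' processing notes name mm9 as the build, and as tools cutadapt 1.1, HTSeq 0.5.3, TopHat2 2.0.4, FastQC and DESeq2, without saying what each did. Replicates are numbered as in the titles, while the names of the deposited count files number the mutant libraries differently. Libraries of the same number are therefore not known to be pairs. Besides 37991 genes, 5 summary entries in each file (36.9% to 41.7% of its total) belong to no gene and were left out. Symbols were matched by identifier for 32919 genes (86.6%).

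TMM scaling and filterByExpr (minimum count 10, minimum total 15) preceded the quasi-likelihood F test of edgeR 4.0.16 (R 4.3.3, robust), with group as the only term and p-values adjusted over 15035 genes at 0.05. The procedure was run on counts simulated from its own estimated means and dispersions. Such counts cannot show how it handles an outlying library. Log2 fold changes are mutant over control, intervals are at the 95% level, and CPM uses the TMM-scaled totals. Likeness used log2 CPM with a prior count of 2. Alternatives used DESeq2 1.42.0, limma 3.58.1 (voom), other scalings, no filter, non-robust fitting, a replicate block and fewer libraries. Limits for a count of 0 cover counting error only, since the reads carry no molecular identifiers known here.

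The members and lists were chosen with earlier results of these data known. Named genes were all members, called genes of the pathway lists (up to 6, otherwise the 2 most abundant), called neighbours of Pdgfra, the 2 most abundant of each marker list, and the 5 most alike. Genes named outside this rule are marked in the text as picked with their values known, or are marker genes given beside a result (Adgre1, Lyz2, C1qa, C1qb, Ctss, Cd68, Lep, Fcer1a, Tpsab1, Kcnj8, Abcc9). Asip was matched through its listed symbol, nonagouti.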

Additional observations from a re-analysis of the deposited data

How the results depend on the processing

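Of the 15 alternatives, most kept the number of 2 members called lower. No filter gave 1, DESeq2 3 and the replicate block 4. The number was 1 without control replicate 2, control replicate 3 or mutant replicate 1, where 5.77%, 5.27% and 7.12% of all genes were lower. Other fits with 1 library left out kept 2 members lower, beside 4.95% to 9.8% of all genes. No alternative called a member higher. Pmel turned to 0.26 on the log2 scale without control replicate 1 and mutant replicate 2 together, the alternative added after the data were seen. There Sox10 turned to 0.13 and Trpm1 to 0.0811. Without control replicate 1 Sox10 turned to 0.0041, and Plin1 to 0.14 without control replicate 3 and 0.21 without mutant replicate 3. With libraries left out these values ran from -0.47 to 0.26 for Pmel, -0.72 to 0.21 for Plin1, -0.43 to 0.13 for Sox10 and -1.35 to 0.08 for Trpm1.

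The deviations of same-numbered libraries from their group means correlated at 0.117, -0.0293 and -0.0866. Control replicates 2 and 3 correlated better with another number (0.0942 and 0.158). With 3 libraries per group these values cannot decide whether the replicate numbers mark pairs. With the replicate block 2 pigment genes were lower, Tyrp1 and Mlana (adjusted p = 0.00266 and 0.0160), 2 regulators were higher, 2 Schwann cell markers and 1 pericyte marker were lower, and all calls went from 2670 to 2767.

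DESeq2 gave 1 pigment gene lower, 2 regulators higher, 1 melanosome gene higher, 2 Schwann cell markers lower and 3 fat cell markers higher. Limma-voom gave 2 regulators higher and 2 Schwann cell markers lower. Non-robust fitting gave 2 regulators higher, 2 Schwann cell and 1 pericyte marker lower, and 3 fat cell markers higher. No filter gave 1 regulator, 6 melanosome genes, 2 Schwann cell markers, 1 pericyte marker and 1 neighbour of Pdgfra lower. Without control replicate 1 and mutant replicate 2 together, 2 Schwann cell markers were lower, 5 macrophage markers, 10 keratinocyte markers and 1 neighbour of Pdgfra were higher, and all genes numbered 1374 higher and 1622 lower.

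With 1 library left out, regulators called numbered 0 to 2 higher and 1 to 2 lower, melanosome genes 0 to 1 higher and 3 to 5 lower, and neighbours of Pdgfra 1 to 2 higher and 1 to 2 lower. Mast cell markers numbered 0 to 1 lower, Schwann cell markers 0 to 1 higher and 1 to 2 lower, keratinocyte markers 1 to 8 higher, macrophage markers 0 to 3 higher, endothelial markers 2 to 5 higher, pericyte markers 0 to 1 lower and fat cell markers 0 to 1 higher. All genes numbered 658 to 1199 higher and 753 to 1500 lower. The cause of these changes was not tested, except that fewer libraries enter the fits with 1 left out.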
